A study of Mus musculus with 15 samples.

Results

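The genes described here are 10 mouse genes of the primary cilium, of Hedgehog signalling and of planar cell polarity, measured in brain messenger RNA of a mouse stroke model. They are Evc, Evc2, Ift88, Ptch1, Smo, Gli1, Celsr1, Celsr2, Celsr3 and Vangl2, and they were chosen by symbol from the 18931 genes of the deposited table. The choice was made on results of the same table, in which the fall of Evc2 in the UA group against vehicle had been seen. All 10 passed the filter on low counts, which left 15125 genes. The 15 libraries came from Kunming mice and form 5 groups of 3, labelled sham, vehicle, JA, UA and JU. Middle cerebral artery occlusion (MCAO) blocks a large artery of the brain, and the label of every library, sham included, opens with MCAO mice. The sham group is the operated control, and the vehicle group is the model without a drug. The series names jasminoidin and ursodeoxycholic acid as its agents, while the group codes JA, UA and JU are used here as the labels give them. The sources used here give no dose, time after occlusion, age, sex, hemisphere or brain region. The labels do not tie each library to its own animal, so the p-values reflect the spread between libraries, which may be technical.

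Most neurons and astrocytes carry a single primary cilium, an antenna-like projection that gathers receptors. Hedgehog ligands bind Ptch1 at the cilium, which releases Smo from repression, and the signal then reaches the Gli transcription factors. Evc and Evc2 form a membrane complex near the base of the cilium that passes the signal on from Smo, and loss of either gene causes Ellis-van Creveld syndrome in humans. Ift88 belongs to IFT-B, the protein train that builds the cilium. Celsr1, Celsr2 and Celsr3 are large cadherins of the adhesion G protein-coupled receptor family, and with Vangl2 they align cells and axons within the plane of a tissue, a process called planar cell polarity.

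Evc and Evc2 are neighbours on chromosome 5 and point away from each other. In the GENCODE annotation of GRCm38, Evc lies on the minus strand at chr5:37289098-37336894 with 24 merged exons. Evc2 lies on the plus strand at chr5:37338499-37425055 with 21, and 1604 bases separate their starts. The promoter windows of this pair are shown because the 2 genes share the interval and have the widest ranges over libraries of the 10. Each window runs from 250 bases before to 50 bases after the RefSeq start on GRCm38.p6 (chr5:37336832-37337131, minus strand, for Evc and chr5:37338228-37338527, plus strand, for Evc2), written 5′ to 3′ on the gene's strand. Capitals mark a GC box (GGGCGG, searched on both strands).
Evc promoter: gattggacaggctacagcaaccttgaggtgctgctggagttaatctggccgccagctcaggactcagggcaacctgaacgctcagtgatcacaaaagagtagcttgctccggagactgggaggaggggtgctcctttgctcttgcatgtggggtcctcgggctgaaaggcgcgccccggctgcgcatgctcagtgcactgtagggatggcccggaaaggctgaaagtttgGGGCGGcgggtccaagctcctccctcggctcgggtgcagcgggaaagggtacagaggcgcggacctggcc
Evc2 promoter: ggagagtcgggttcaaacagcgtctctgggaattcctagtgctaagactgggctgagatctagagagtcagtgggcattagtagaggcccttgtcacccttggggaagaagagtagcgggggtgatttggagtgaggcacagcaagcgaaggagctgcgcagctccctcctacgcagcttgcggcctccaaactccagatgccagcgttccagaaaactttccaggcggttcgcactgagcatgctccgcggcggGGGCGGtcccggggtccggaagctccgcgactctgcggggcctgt
The GC box starts 20 bases before the start of Evc and at base 6 after the start of Evc2. RefSeq windows were matched for 8 of the 10 genes. A GC box was found in 5 of these 8 (Evc, Evc2, Celsr3, Ptch1 and Vangl2), against 35.6% of 32817 mouse promoter windows of the same length. The GLI letters GACCACCC were found in none of the 8, against 0.808% of all windows. The RFX letters GTTGCCA, part of the X-box of many cilium genes, was found in 1 of the 8, against 4.38% of all windows. That promoter is shown because Ift88 is the one transport gene of the set, with the RFX letters, here read on the opposite strand, in capitals (chr14:57423821-57424120, plus strand).
Ift88 promoter: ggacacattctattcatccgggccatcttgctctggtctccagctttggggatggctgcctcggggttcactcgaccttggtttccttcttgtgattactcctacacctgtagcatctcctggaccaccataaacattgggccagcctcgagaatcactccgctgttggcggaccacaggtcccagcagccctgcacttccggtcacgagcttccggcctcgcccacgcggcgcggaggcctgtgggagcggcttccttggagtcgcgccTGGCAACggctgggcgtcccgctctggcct
The 8 windows held 16 to 47 CpG dinucleotides, against a median of 7 over all windows. No test was made of these counts.

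The other genes lie on separate chromosomes. Celsr1 is at chr15:85898929-86033777, Celsr2 at chr3:108390851-108415552 and Celsr3 at chr9:108826320-108852969. Ptch1 is at chr13:63508328-63573598, Smo at chr6:29735503-29761365, Gli1 at chr10:127329882-127341974, Vangl2 at chr1:172000960-172028444 and Ift88 at chr14:57424062-57517936. All coordinates are for GRCm38. The strand setting of the counting is not given in the sources used here, and exons of Gli1 overlap those of Arhgap9 on the opposite strand over 62 bases. Gli1 also overlaps the antisense gene Gm47200 over 265 bases, and Ift88 overlaps the antisense gene Ift88os over 67 bases. Celsr3 overlaps the microRNA gene Gm23156 on the same strand over 65 bases. Reads from those stretches could belong to either gene.

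The libraries held between 18346180 and 20447465 counts. Levels are given as CPM, the count as a share of a fixed library total with TMM scaling between libraries, and the detection floor of 3 counts stands at 0.147 to 0.164 CPM. Every one of the 10 genes was above that floor in every library. Markers of neurons, oligodendrocytes and astrocytes, the defining cells of brain, were detected in all 15 libraries with none at 0. JU replicate 1 stood apart, with a first principal component score of 129 against a highest score of 84.2 in the vehicle group, and values that it moved are given with and without it. In vehicle and JU libraries, the genes with the lowest transcript GC content (lowest decile) lay 0.103 to 0.19 log2 units below their mean over libraries. The same genes lay 0.0327 to 0.165 above it in the 9 libraries of sham, JA and UA. Genes of the highest GC decile were less cleanly divided. They lay from -0.00618 to 0.144 in vehicle and JU and from -0.0824 to 0.0165 in the 9 others, so these ranges overlapped. Of the 10 genes, 8 had a transcript GC content above the median of all genes, and Ptch1 (47.8%) and Ift88 (41.2%) were below it. A fit that corrects for GC content is therefore given where it changes a value.

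Per transcript length, in the deposited FPKM averaged over 15 libraries, Celsr2 had the highest level at 22.2. Ptch1 (7.16 FPKM) and Smo (6.62 FPKM) followed, then Celsr3 (4.09) and Ift88 (4.02). Evc2 stood at 2.53 FPKM, Vangl2 at 1.97, Evc at 1.49, Celsr1 at 0.966 and Gli1 at 0.719. Of the 3 Celsr cadherins, then, Celsr2 was the most abundant in these brains and Celsr1 the least. The order says little about the spread over libraries: Evc2 ranged 3.91-fold from its lowest to its highest CPM, Evc 3.75-fold, Smo 3.21-fold and Celsr1 2.92-fold. Ift88 (1.36-fold), Vangl2 (1.35-fold) and Ptch1 (1.29-fold) had the narrowest ranges.

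**Figure D1:**
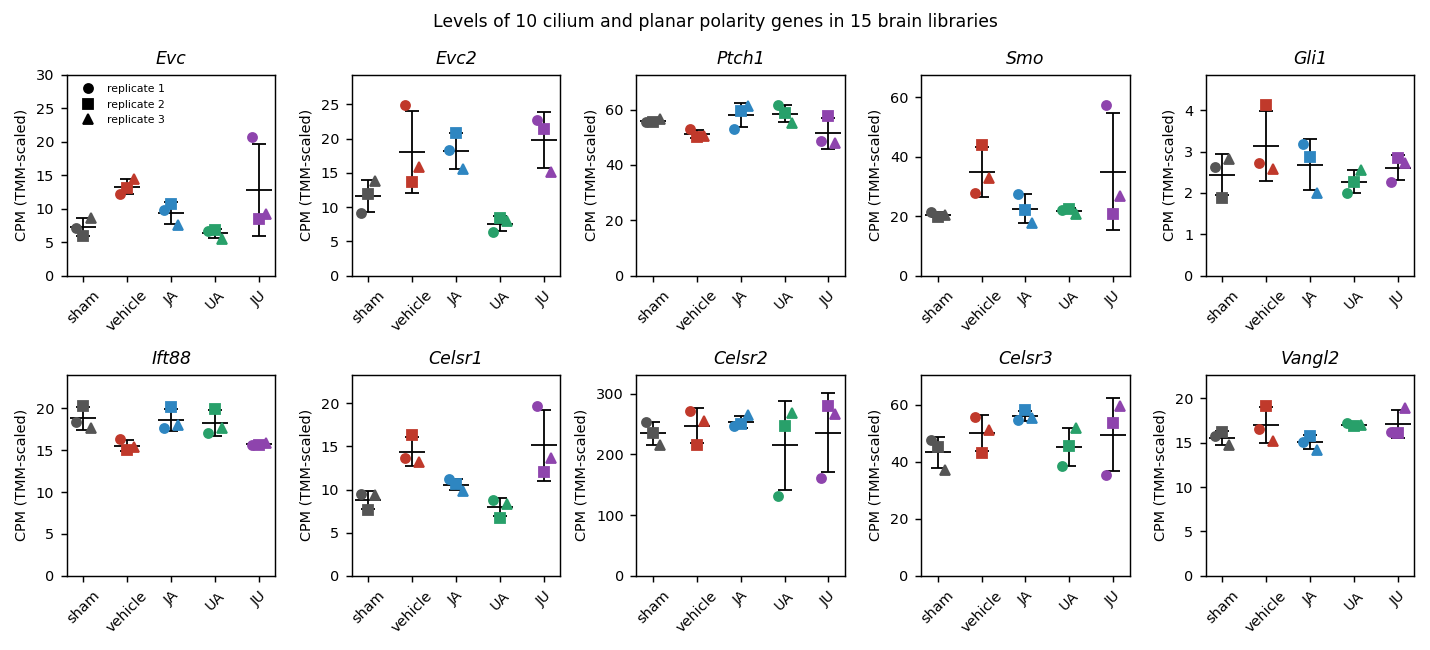
TMM-scaled CPM of each of the 10 genes (vertical axes, from 0) in the 3 libraries of each of 5 groups (horizontal axes); symbols mark replicates, and horizontal lines with bars the mean ± SD. The 3 UA libraries of Evc2 sit between 6.358 and 8.44 CPM, below all 12 others, while Ptch1 stays between 47.92 and 61.59 CPM.

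Evc2 had the widest range of the 10 genes over the libraries. In the sham libraries it measured 9.102, 11.93 and 13.82 CPM, and in the vehicle libraries 24.87, 13.59 and 15.82. It measured 18.27, 20.86 and 15.58 CPM in JA, 6.358, 8.44 and 7.991 in UA, and 22.78, 21.47 and 15.18 in JU. The order of the group means was UA (7.596 ± 1.1 CPM, SD, n = 3), sham (11.62 ± 2.37), vehicle (18.09 ± 5.97), JA (18.24 ± 2.64) and JU (19.81 ± 4.06). Vehicle, JA and JU overlapped one another. Sham and vehicle overlapped too, since vehicle replicate 2 lay below sham replicate 3.

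Its partner Evc shared part of that pattern. Evc measured 7.05, 5.937 and 8.655 CPM in sham and 12.23, 13.14 and 14.43 in vehicle. The 3 values were 9.715, 10.74 and 7.513 CPM in JA, and 6.69, 6.762 and 5.532 in UA. JU held the highest single value, 20.72 in replicate 1, beside 8.413 and 9.219 in the other 2 libraries. Vehicle lay above sham, JA and UA without overlap, and UA and sham overlapped. Evc was thus lower in JA than in vehicle, library for library, where Evc2 was not. The Pearson correlation of Evc and Evc2 in log2 CPM was 0.704 over 15 libraries, which share groups and sequencing depth.

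In the receptor part of the pathway, Smo, the transducer that Ptch1 holds in check, varied most. Smo measured 21.31, 19.64 and 20.34 CPM in sham, 27.68, 44.05 and 32.78 in vehicle, and 27.48, 22.2 and 17.84 in JA. It measured 22.17, 22.46 and 20.8 CPM in UA, and 57.33, 20.76 and 26.67 in JU. All vehicle libraries were above all sham libraries, and JU replicate 1 was above every other library. Ptch1, receptor and textbook Hedgehog target in one, measured 55.56, 55.68 and 56.73 CPM in sham and 52.95, 50.13 and 50.46 in vehicle. It ran from 53.01 to 61.21 CPM in JA, from 55.32 to 61.59 in UA and from 47.92 to 57.69 in JU. Gli1, the transcription factor commonly read as a Hedgehog target, was low throughout, from 1.875 to 4.12 CPM, with group means from 2.274 ± 0.285 (UA) to 3.137 ± 0.854 (vehicle, SD, n = 3). UA lay just below vehicle without overlap, and every other pair of groups overlapped.

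Ift88, the transport gene, measured 18.31, 20.31 and 17.68 CPM in sham and 16.27, 14.96 and 15.34 in vehicle. JU held 15.58, 15.62 and 15.87 CPM, and JA (17.62 to 20.09) and UA (17.08 to 19.94) stayed within or near the sham range. Vehicle and JU libraries were thus the low ones, with every sham, JA and UA library above them.

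Among the polarity genes, Celsr1 measured 9.47, 7.604 and 9.385 CPM in sham and 13.71, 16.38 and 13.14 in vehicle. It measured 11.18, 10.59 and 9.888 in JA, 8.846, 6.762 and 8.298 in UA, and 19.74, 12.02 and 13.61 in JU. Vehicle and JU were high, UA and sham were low and overlapped, and JA lay between them. Celsr2 ran from 216.2 to 253.1 CPM in sham, from 215.4 to 271.3 in vehicle and from 245.9 to 265 in JA. Its lowest values were 131.1 in UA replicate 1 and 161.4 in JU replicate 1, while the other UA and JU libraries held 246.4 to 280.4. Celsr3, known for guiding axons, ran from 35.22 CPM in JU replicate 1 to 59.65 in JU replicate 3, and only the JA group (54.57 to 58.02) lay above sham (37.07 to 47.46) and UA (38.43 to 51.79) without overlap. Vangl2 stayed between 14.2 and 19.18 CPM.

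Vehicle was compared with sham to ask how the genes differ in the untreated stroke model. Celsr1 rose, by 0.71 ± 0.18 log2 units (SE, n = 3 a group; edgeR quasi-likelihood test, Benjamini-Hochberg adjusted p = 0.047 over 15125 genes), and it was the 1 of 10 genes past the threshold of 0.05. Of all genes tested, 5.02% passed. Evc (0.88 ± 0.30, adjusted p = 0.091 in the same test), Smo (0.77 ± 0.31, 0.129) and Evc2 (0.64 ± 0.24, 0.116) had differences of the same size with wider errors and did not pass. Ift88 was at -0.27 ± 0.09 (adjusted p = 0.0925) and Ptch1 at -0.13 ± 0.08 (0.303). Gli1 (0.36 ± 0.26, adjusted p = 0.367), Celsr3 (0.21 ± 0.18, 0.449), Vangl2 (0.13 ± 0.10, 0.417) and Celsr2 (0.08 ± 0.24, 0.849) completed the set. The groups did not overlap for 5 of the 10 genes, against 49.2% of all genes. The median of the 10 differences was 0.28, against 0 over all genes. Because the set was chosen with results of these data known, neither count is independent evidence.

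The call for Celsr1 was lost on leaving out any 1 of the 6 sham and vehicle libraries, with log2 differences from 0.60 to 0.76 and adjusted p from 0.0823 to 0.19 in edgeR. It was also lost in the GC-corrected fit (0.55 ± 0.19, adjusted p = 0.216), in which no gene of the table passed in edgeR (2944 at an unadjusted p under 0.05) and Ift88 was at -0.02 ± 0.10. Over all 18 alternative settings the adjusted p of Celsr1 ran from 0.0038 to 0.224. JU replicate 1 is in neither group, but it widens the shared estimate of the spread. Without it, edgeR called 4 of the 10 genes, namely Evc, Smo and Celsr1 higher and Ift88 lower, against 33.9% of all genes. With GC correction as well, 3 of the 10 were called (Evc, Smo and Celsr1, all higher), against 25% of all genes. DESeq2 called 3 of the 10, Evc and Celsr1 higher and Ift88 lower, against 16.6% of all genes.

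**Figure D2:**
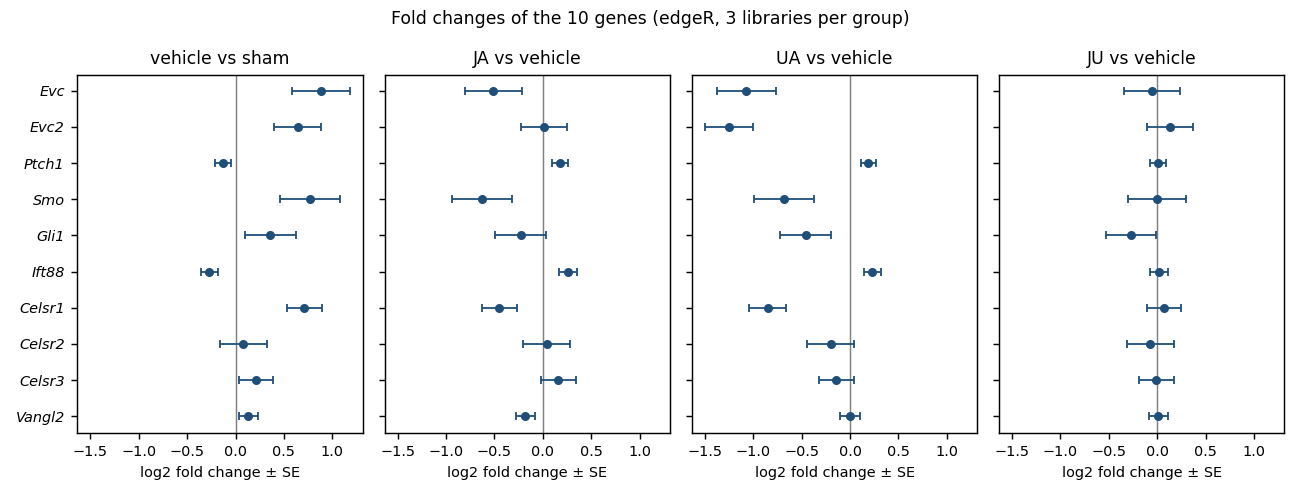
Log2 fold change of each gene (points, with bars for ± SE from edgeR, 3 libraries per group) in vehicle against sham and in JA, UA and JU against vehicle, on a common horizontal axis. Evc2 is at 0.64 in vehicle against sham, 0.01 in JA, -1.25 in UA and 0.13 in JU, and no gene in the JU panel is beyond 0.27 in size.

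Markers of several cell types differed with the vehicle group. Of 12 marker lists, 7 had summed levels in all vehicle libraries above all sham libraries, and the neuron list had them below. Among single genes, 49.2% had groups without overlap in this comparison. The edgeR test called 4 of 8 microglia markers, all higher, against 5.02% of all genes. It called no gene of the other marker lists, among them 0 of 8 reactive microglia and macrophage markers. The widest gap was that of microglia and macrophages. The mean log2 level of 8 reactive microglia and macrophage markers, with the sham mean at 0, was 3.99 to 5.74 in vehicle, and its summed level ran from 7137 to 16620 CPM against 1720 to 1828 in sham, with none of the 8 at 0. The score was 4.16, 0.65 and 0.42 in JA, 0.44, 2.31 and 1.31 in UA and 6.86, 0.48 and 2.06 in JU. Summed neuron markers (10 genes) ran from 9584 to 9778 CPM in sham and from 5609 to 7927 in vehicle, and stood at 3652 in JU replicate 1. Pericyte and fibroblast markers were at 390.1 to 1172 CPM in vehicle against 203.9 to 238.7 in sham. Neural progenitor and neuroblast markers were at 371.9 to 841.8 CPM against 203.7 to 263.4, oligodendrocyte precursor markers at 436.2 to 493.8 against 335 to 369.7, and astrocyte markers at 4454 to 6210 against 4054 to 4213. Ependymal and motile cilium markers, from cells that carry many cilia, were at 65.41 to 93 CPM in vehicle against 45.67 to 61.67 in sham. Libraries of 1 group also differed among themselves. Summed choroid plexus markers ran from 22.67 CPM (replicate 1) to 1208 in vehicle and from 367.5 to 892.3 in sham. The mean log2 level of cerebellum granule cell markers, sham mean at 0, ran from -0.34 to 2.16 in UA. The part of these cells in the differences of Evc, Smo and Celsr1 was not tested, and in whole-tissue RNA fewer cells of a type and less RNA per cell cannot be told apart.

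**Figure D3:**
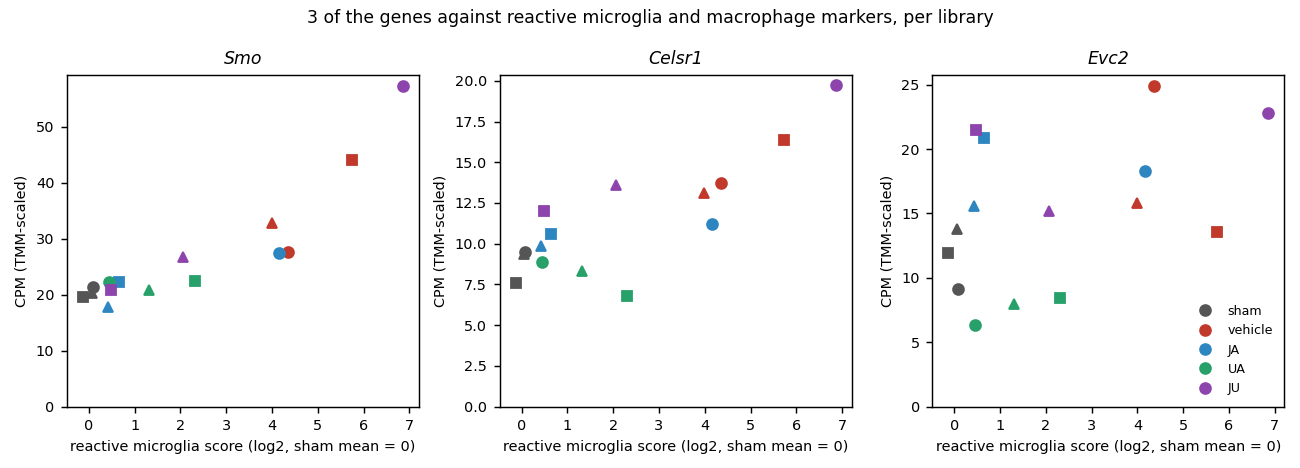
TMM-scaled CPM of Smo, Celsr1 and Evc2 (vertical axes) against the mean log2 level of 8 reactive microglia and macrophage markers, sham mean at 0 (horizontal axes), in 15 libraries; colours mark groups and symbols replicates. Smo is highest in the library with the highest score (57.33 CPM at 6.86), while Evc2 holds 20.86 CPM in a JA library with a score of 0.65.

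Smo was highest where that score was highest: its top values, 57.33, 44.05 and 32.78 CPM, were in libraries with scores of 6.86, 5.74 and 3.99, while vehicle replicate 1, with a score of 4.36, held 27.68 CPM. JA replicate 1, with a score of 4.16, held 27.48 CPM, above the other 2 JA libraries. Evc2 was different in JA, where the libraries with scores of 0.65 and 0.42 held 20.86 and 15.58 CPM, above every sham library. In UA, Evc2 was lowest (6.358 CPM) in the library with the lowest score, 0.44.

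JA was compared with vehicle to ask how the genes differ in the model under JA. None of the 10 genes passed in edgeR, against 1.56% of all genes, and 2 had an unadjusted p under 0.05 (Celsr1 and Ift88). DESeq2 also called none. Celsr1 was at -0.45 ± 0.18 (adjusted p = 0.224 in edgeR), Smo at -0.63 ± 0.31 (0.283) and Evc at -0.51 ± 0.29 (0.346), each with all JA libraries below all vehicle libraries. Ift88 (0.26 ± 0.09, adjusted p = 0.181) and Ptch1 (0.18 ± 0.08, 0.265) had all JA libraries above. These 5 of 10 genes without overlap compare with 33.3% of all genes. Evc2 was at 0.01 ± 0.24 (adjusted p = 0.978). Without JU replicate 1, edgeR called 2 of the 10, Celsr1 and Smo, both lower, against 19% of all genes. With GC correction Ift88 was at 0.04 ± 0.10 and Ptch1 at 0.14 ± 0.09. In that fit Celsr1 was at -0.32 ± 0.19, Smo at -0.49 ± 0.31 and Evc at -0.37 ± 0.29, and no gene of the table passed.

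UA against vehicle is the comparison on which Evc2 had been picked out, so the values of all 10 genes are given as a description. Evc2 was lower by 1.25 ± 0.25 log2 units, which takes the group mean from 18.09 to 7.596 CPM. Evc was at -1.07 ± 0.30, Celsr1 at -0.85 ± 0.19, Smo at -0.68 ± 0.31 and Gli1 at -0.46 ± 0.26. Ift88 (0.23 ± 0.09) and Ptch1 (0.19 ± 0.08) were higher, and Vangl2 (0.00 ± 0.10), Celsr3 (-0.14 ± 0.18) and Celsr2 (-0.20 ± 0.24) were near or below 0. Evc2 and Celsr1 were the 2 of 10 genes past the edgeR threshold, where 3.47% of all genes passed. The groups did not overlap for 7 of the 10, against 43.9% of all genes. Since the choice of genes used this comparison, nothing is read from either count. Without JU replicate 1, 4 of the 10 passed (Evc, Evc2, Celsr1 and Smo), against 28.2% of all genes. With GC correction none of the 10 passed, nor did any other gene, Evc2 stood at -1.08 ± 0.25 and Ift88 at -0.02 ± 0.10. With GC correction and without JU replicate 1, 3 of the 10 passed (Evc, Evc2 and Celsr1), against 11.8% of all genes. Leaving out any 1 of the 6 libraries compared left at most 1 gene past the threshold.

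In JU against vehicle none of the 10 genes passed, nor did any other gene in edgeR (0% of all genes, with 300 genes at an unadjusted p under 0.05), and DESeq2 called 2 genes, neither of them among the 10. The largest of the 10 differences was that of Gli1, at -0.27 ± 0.26, while Evc was at -0.05 ± 0.29 and Smo at 0.00 ± 0.30. Without JU replicate 1 these 2 genes were at -0.58 ± 0.19 and -0.55 ± 0.19 (unadjusted p = 0.00852 and 0.0146, adjusted p = 0.186 for each in edgeR). None of the 10 passed in that fit either, against 0.00656% of all genes. The groups overlapped for each of the 10, whereas 4.24% of all genes had groups without overlap. JU replicate 1 had the highest Evc, Smo and Celsr1 of the 15 libraries and the lowest Celsr3.

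Setting the treatments against one another gave the widest gap for Evc2. JU exceeded UA in Evc2 by 1.38 ± 0.25 log2 units (adjusted p = 0.0436, edgeR quasi-likelihood test) and in Celsr1 by 0.92 ± 0.19 (adjusted p = 0.0449), which made 2 of 10 genes called against 1.08% of all genes. Evc was at 1.01 ± 0.30 (adjusted p = 0.0957) and Smo at 0.68 ± 0.31 (0.178) in the same comparison, and at 0.48 ± 0.19 and 0.12 ± 0.19 without JU replicate 1. The groups did not overlap for 4 of the 10, namely Evc, Evc2 and Celsr1 higher and Ift88 lower in JU, against 23.7% of all genes. Without JU replicate 1, Evc2 alone passed (1.26 ± 0.26, adjusted p = 0.0487 in edgeR), against 0.623% of all genes. Leaving out any UA library, or JU replicate 3, ended both calls, with adjusted p from 0.094 to 0.147, and leaving out JU replicate 1 ended that of Celsr1 (adjusted p = 0.059). Without JU replicate 2, 5 of the 10 passed. The share of all genes in that setting is not given here, so nothing is read from that count. Over all 17 alternative settings the adjusted p ran from 4.86e-05 to 0.798 for Evc2 and from 0.000382 to 0.852 for Celsr1. This comparison shares its UA libraries with the one Evc2 was picked on and is no independent support for it.

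JA exceeded UA in Evc2 by 1.26 ± 0.25 log2 units, with every JA library above every UA library. In edgeR no gene passed in JA against UA (0% of all genes, with 328 at an unadjusted p under 0.05), and Evc2 had an unadjusted p of 0.000227 and an adjusted p of 1. DESeq2 called Evc2 there, as the only gene of the 15125 (0.00661% of all genes). The groups did not overlap for 5 of the 10 genes (Evc, Evc2, Celsr1 and Celsr3 higher and Vangl2 lower in JA), against 9.32% of all genes. JA against UA shares its UA libraries with the comparison Evc2 was picked on. Neither the DESeq2 call nor this count is therefore independent support for the fall of Evc2. In JU against JA no gene passed in edgeR (0% of all genes, 3074 at an unadjusted p under 0.05), DESeq2 called 634 and none of the 10, and the largest difference that kept the groups apart was that of Celsr1, 0.52 ± 0.18 (adjusted p = 0.197), or 0.28 ± 0.15 without JU replicate 1. Evc was at 0.46 ± 0.29 and Smo at 0.63 ± 0.31 in JU against JA, and at -0.08 ± 0.19 and 0.08 ± 0.19 without that library.

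Against sham, the treated groups fell on both sides for Evc2. JU was at 0.77 ± 0.24 (adjusted p = 0.0741 in edgeR) and JA at 0.65 ± 0.24 (adjusted p = 1), with all libraries of each above all sham libraries. UA was at -0.61 ± 0.24 (adjusted p = 1), with all 3 libraries below sham. The UA value of Evc2 rests on the libraries in which its fall had been seen. In JA against sham and in UA against sham edgeR called no gene (0% of all genes in each), with 500 and 193 genes at an unadjusted p under 0.05. DESeq2 called 12 and 4 genes there and none of the 10. In JU against sham, Celsr1 rose by 0.78 ± 0.18 (adjusted p = 0.0425), the 1 of 10 called against 3.72% of all genes. That call was lost without any 1 sham library, without JU replicate 1 (0.54 ± 0.15, adjusted p = 0.0806) or without JU replicate 3. Without JU replicate 1, none of the 10 passed, against 2.64% of all genes, and Evc went from 0.83 ± 0.30 to 0.29 ± 0.19 and Smo from 0.77 ± 0.31 to 0.21 ± 0.19. Without JU replicate 2, 4 of the 10 passed, and nothing is read from that count either, since the share of all genes is not given here. Over all 17 alternative settings the adjusted p of Celsr1 ran from 0.00224 to 0.539. DESeq2 called 3 of the 10 (Evc, Evc2 and Celsr1, all higher), against 19.7% of all genes.

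The other genes of these pathways were read from 10 lists holding 128 genes, of which 118 are not among the 10. In vehicle against sham, 3 of the 117 of these tested rose and 1 fell, and their median log2 difference was 0. These calls are 3.42% of the 117, against 5.02% of all genes, so the lists held no larger share of calls than the table. Each of the 4 calls, Iqce, Scrib, Pkd1 and Bbip1, was lost on leaving out any 1 of the 6 libraries compared (edgeR adjusted p from 0.0825 to 0.2). Iqce, which anchors the Evc and Evc2 complex at the cilium base, rose from 19.57 ± 2.19 to 25.72 ± 1.1 CPM (SD, n = 3; log2 difference 0.39 ± 0.10, edgeR adjusted p = 0.0478). It made 1 of 4 genes of the EvC complex list, all 4 of them above 0, and the other anchoring gene, Efcab7, was at 0.13 ± 0.23 (adjusted p = 0.724). That list also holds Evc and Evc2, which were chosen with results of these data known. Iqce fell in UA against vehicle, to 19.07 ± 0.992 CPM (-0.43 ± 0.10, edgeR adjusted p = 0.0419), a call also lost without any 1 of its 6 libraries (adjusted p from 0.0835 to 0.156). It was the 1 call among the 117 in that comparison, against 3.47% of all genes. The lists were chosen with earlier results of these data known, so nothing is read from this call.

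None of the 9 Hedgehog ligand and release genes passed in vehicle against sham. Dhh, a ligand close to the detection floor in sham (0.2089 ± 0.0897 CPM), had the widest difference (1.94 ± 0.66, edgeR adjusted p = 0.0924), and Shh, the ligand best known from brain development, was at -0.30 ± 0.29 (adjusted p = 0.502). Nor did any of the 15 reception and transduction genes pass, although 11 were above 0 and their median was 0.35, against 0.2 with GC correction. Sufu, which restrains the Gli factors, was at 0.35 ± 0.16 and Gpr161, a ciliary receptor that also restrains the pathway, at 0.38 ± 0.17 (edgeR adjusted p = 0.165 and 0.171). Hhip, a decoy for the ligands, was at -0.48 ± 0.22 (adjusted p = 0.177).

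Of 21 planar polarity core genes and partners, 2 rose in vehicle against sham, Celsr1 and Scrib. Scrib, a scaffold that binds Vangl2, went from 32.08 ± 2.76 to 43.89 ± 1.56 CPM (0.45 ± 0.12, edgeR adjusted p = 0.0478), and it also rose in JU against sham (0.56 ± 0.12, adjusted p = 0.0321). That second call was lost without JU replicate 1 (0.46 ± 0.12, edgeR adjusted p = 0.0541), without JU replicate 3 (0.0549) and without any 1 sham library (0.086 to 0.156). The list had 16 genes above 0 and a median of 0.34, or 0.19 with GC correction. Fzd3, a receptor of axon guidance, was at -0.52 ± 0.21 (adjusted p = 0.137). Of 9 Fat and Dachsous genes and effectors none passed. Dchs1, the cadherin that binds Fat4, was at 0.57 ± 0.16 (edgeR adjusted p = 0.0554) and Fat4 at 0.34 ± 0.11 (0.0812).

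The cilium-building lists lay on the other side of 0. Of 17 IFT-B genes tested 14 were below 0 and none passed, with a median of -0.16. Ift74, which binds tubulin cargo, was the nearest at -0.40 ± 0.11 (edgeR adjusted p = 0.0549). Of 12 IFT-A and motor genes 8 were below 0 and none passed, with Wdr35 at -0.40 ± 0.12 (adjusted p = 0.0637) and Kifap3, a kinesin subunit, at -0.69 ± 0.24 (0.093). The BBSome list, a coat that moves receptors through the cilium, had 9 of 12 genes below 0 and the lowest median of the 10 lists, -0.42. Bbip1 fell from 47.78 ± 1.02 to 31.83 ± 4.14 CPM (-0.59 ± 0.15, adjusted p = 0.0498), and Bbs5 was at -0.62 ± 0.17 (0.0509). The median transcript GC content of this list was 44.4%, that of IFT-B 46.9% and that of IFT-A and motors 47.1%, against 49.9% over all genes tested. With GC correction the median difference of the BBSome list was -0.21, and Ift88 of the IFT-B list was at -0.02 ± 0.10. DESeq2 called 6 of the 12 BBSome genes and 4 of the 17 IFT-B genes, all lower, against 16.6% of all genes. The edgeR test without JU replicate 1 called 6 and 5, all lower, against 33.9% of all genes. None of 18 transition zone genes passed, with Rpgrip1l at -0.57 ± 0.17 (adjusted p = 0.0697). Of 10 genes of the ciliary membrane and neuronal cilium, Pkd1, the polycystin, rose from 80.76 ± 5.24 to 114.1 ± 7.55 CPM (0.50 ± 0.13, edgeR adjusted p = 0.0479). With GC correction no gene of the 10 lists passed, nor did any of all genes. With GC correction and without JU replicate 1, 25% of all genes passed, and so did, among others, 3 planar polarity genes higher and 1 lower, 4 Fat and Dachsous genes higher and 3 IFT-A and motor genes lower, but no IFT-B or BBSome gene.

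**Figure D4:**
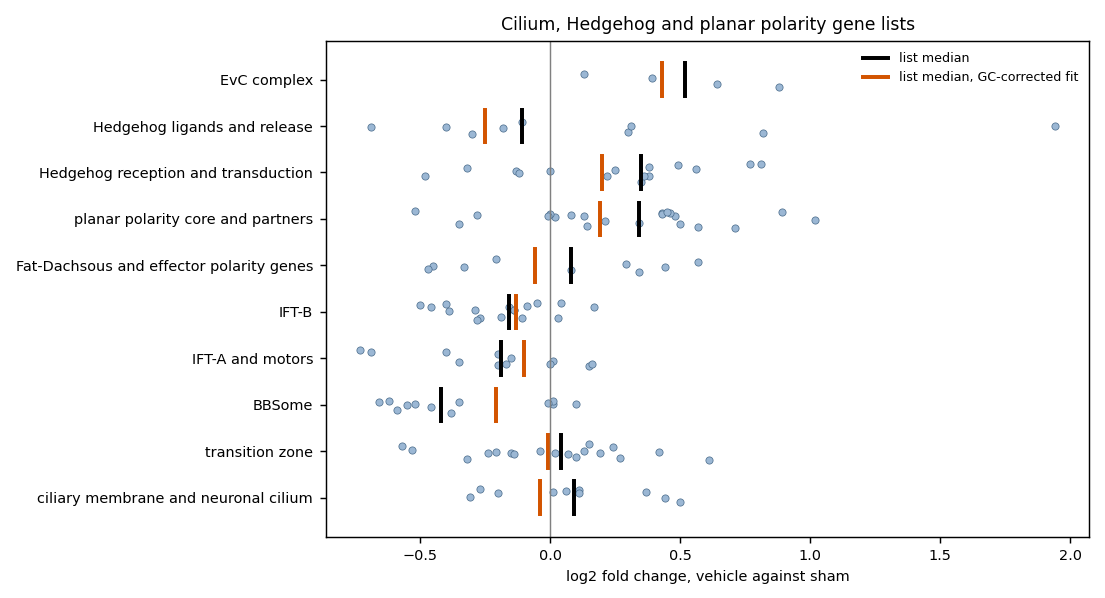
Log2 difference of vehicle against sham (horizontal axis) for each tested gene of 10 cilium, Hedgehog and planar polarity lists (points, 1 row per list), with black bars at the list median and orange bars at the median in the GC-corrected fit. The EvC complex has the highest median (0.52) and the BBSome the lowest (-0.42), and the BBSome median is -0.21 with GC correction. The lists include the 10 genes chosen with results known, and the EvC complex list holds Evc and Evc2.

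The genes whose log2 CPM ran most like each of the 10 over 15 libraries were read from 13730 candidates, as Pearson r with no test, and all share the same groups and depth. Smo had the closest, Cyfip1 and Vasp (r = 0.989 each) and Ctdsp1 (0.988). Celsr1 was followed by Tmed9 (0.954), Rbm38 (0.94) and Fam214b (0.938). For Evc the closest were Ttyh2 and Zfp740 (0.929 each) and Mgat1 (0.923), and for Evc2 Anks3 (0.876), Spns1 (0.854) and Bicd2 (0.849). Celsr2 ran most like Mib2 (0.901), Ppp1r13b (0.896) and Pomgnt2 (0.869), and Celsr3 most like Hectd4 (0.919), Csmd2 (0.918) and Pcdh1 (0.917). Ptch1 ran most like Serf1 (0.913), Zfp942 (0.906) and Sgcz (0.895), and Ift88 most like Lmbrd2 (0.907), Zmym4 (0.904) and Dop1a (0.903). Gli1 (Hspa2, 0.777) and Vangl2 (Cnmd, 0.79) had no gene above 0.8 over the 15 libraries, though Vangl2 with Cnmd was at 0.91 without JU replicate 1. High values were common for some genes: 21.3% of the candidates had r above 0.8 with Smo, 10.5% with Evc and 8.84% with Celsr1, against 0.051% with Evc2. Among the 45 pairs of the 10 genes, 3 had r over 0.8, namely Evc with Celsr1 (0.899), Evc with Smo (0.867) and Celsr1 with Smo (0.836). Leaving out JU replicate 1 these were 0.848, 0.773 and 0.749, so 1 of the 3 stayed over 0.8. The lowest were Celsr1 with Ift88 (-0.808) and Ptch1 with Smo (-0.774).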

How the data were processed

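The 10 genes and the gene lists were chosen with earlier results of these data known. The authors deposited 1 table that lists, per the file headers, raw counts and FPKM values of each gene. Per the labels' protocols, a mirVana kit gave the RNA and a TruSeq Stranded mRNA kit the libraries. Trimmomatic, HISAT2, Cufflinks, DESeq and GRCm38 (mm10) appear in the submitters' processing notes, and the counting tool is not given in the sources used here. A further 1 count column matched no sample's labels and was not used. Groups and replicate numbers came from the labels. Counts of any 2 replicates differed beyond sampling noise (chi-square over degrees of freedom 5.16 or more).

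Counts were filtered with filterByExpr, scaled by TMM (factors 0.975 to 1.033) and tested by quasi-likelihood with edgeR 4.0.16 under R 4.3.3, in 1 fit of 15 libraries with a term per group, robust estimation and 10 residual degrees of freedom. The biological coefficient of variation was 27.1%. P-values were adjusted by Benjamini-Hochberg over 15125 genes within each of 10 comparisons, with a threshold of 0.05, and SEs are fold change over the root of F. Log2 CPM used a prior count of 2. The edgeR steps were tested on simulated data. Alternatives were DESeq2 1.42.0, limma 3.58.1 (voom, and log2 FPKM with a pseudocount of 0.1 or 1), DESeq2 size factors, no filter, only the 2 groups compared, a replicate block, an offset for GC content (known for 97.9% of genes) and leaving out each library. All 10 genes are named. Of each list, up to 4 genes with the smallest p in vehicle against sham, every called gene where 4 or fewer passed, and for likeness the 3 highest r among genes with a mean of at least 1 CPM could be named. Shh and Efcab7 were named outside this rule, for their roles, after their values were seen. Detection floors cover counting error only.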

Additional observations from a re-analysis of the deposited data

Results flagged for a closer look

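Of the 10 genes, 2 had effects against vehicle that differed between JU and UA in the edgeR test of that difference, against 1.08% of all genes. For Evc2 the JU value exceeded the UA value by 1.38 ± 0.25 log2 units, with all 3 JU libraries (15.18 to 22.78 CPM) above all 3 UA libraries (6.358 to 8.44 CPM), and the adjusted p was 0.0436. For Celsr1 the gap was 0.92 ± 0.19 (12.02 to 19.74 against 6.762 to 8.846 CPM, edgeR adjusted p = 0.0449). The vehicle libraries cancel from both gaps, which rest on 6 libraries. With GC correction the gaps were 1.22 and 0.78, and neither passed (edgeR adjusted p = 0.28 for each). Without JU replicate 1 they were 1.26 ± 0.26 and 0.68 ± 0.16 (edgeR adjusted p = 0.0487 and 0.059). Leaving out any UA library, or JU replicate 3, ended both calls. The UA libraries are those in which the fall of Evc2 had been seen, so these gaps are no independent support for it.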

How the results depend on the processing

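The 10 genes in 10 comparisons gave 100 fold changes, which were recomputed 1760 times. The sign differed 129 times, over 41 of the 100, and 3 of these 41 had a log2 size of 0.25 or more (Smo in JU against UA and, with Evc, in JU against JA, where the lowest values were -0.05 and -0.2). Of the 6 called ones, 105 recomputed values passed again 34 times and 71 missed the threshold. Among the 30 with an unadjusted p under 0.05, recomputed 527 times, 25 values newly passed and 7 reversed. Those 7 were Ift88 in UA against vehicle, -0.02 with GC correction, with the replicate block and GC correction, and with GC correction without JU replicate 1, Ift88 in JU against UA (0.01, 0.01 and 0.03 in the same settings), and Smo in JU against UA (-0.04 with GC correction without JU replicate 1).

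The number of the 10 genes called in vehicle against sham was 1. It was 3 with DESeq2, with only the 2 groups compared and with GC correction without JU replicate 1, and 0 with voom, no filter, GC correction, the replicate block (with or without GC correction) and both FPKM fits. Leaving out 1 library gave 0 to 4. In JA against vehicle it was 0, and leaving out 1 library gave 0 to 2. In UA against vehicle it was 2, and 4 with only the 2 groups compared, 1 with the replicate block or log2(FPKM + 1), 0 with GC correction with or without the block, and 3 with GC correction without JU replicate 1. Leaving out 1 library gave 0 to 4. In JU against sham it was 1, and 3 with DESeq2 and 0 with voom, no filter, only the 2 groups, the replicate block (with or without GC correction), GC correction (with or without JU replicate 1) and both FPKM fits. Leaving out 1 library gave 0 to 4. In JA against UA it was 0, and 1 with DESeq2. In JU against UA it was 2, and 1 in both FPKM fits and 0 with voom, DESeq2 size factors, no filter, only the 2 groups, the replicate block (with or without GC correction) and GC correction (with or without JU replicate 1). Leaving out 1 library gave 0 to 5. In the 4 other comparisons it was 0 in every setting run. The share of all genes called moved between settings too. In vehicle against sham it was 5.02%, and 16.6% with DESeq2 and 33.9% without JU replicate 1. In UA against vehicle it was 3.47%, 10.1% and 28.2% in the same order. For JU against sham it was 3.72%, 19.7% and 2.64%, and for JU against UA 1.08%, 10.4% and 0.623%. Shares for the other settings are not all given here, so nothing is read from these counts alone. The cause of these moves was not tested.

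Libraries with the same replicate number were not more alike than others: of 30 same-numbered pairs, 7 had deviations correlated above 0.1 (median -0.00534), and of 60 other pairs 18 did. Outlying libraries gave large values of either sign, such as vehicle replicate 2 with JU replicate 1 (0.774) and with JU replicate 2 (-0.726). A pairing by the numbers in the title codes, which differ for some libraries, was not examined. These values therefore cannot decide whether libraries were paired. The number of all genes called in vehicle against sham was 760, and it was 2507 with DESeq2, 383 with the replicate block, 3763 with only the 2 groups and 5172 without JU replicate 1. With 3 libraries a group, the SEs of Smo (up to 0.31) and Evc (up to 0.3) were the widest of the 10 genes in the main fit. Without JU replicate 1 both were 0.17 in vehicle against sham, below those of Gli1 (0.26), Evc2 (0.23) and Celsr2 (0.2).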
